A study of Mus musculus with 33 samples.

Results

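The genes described here are 43 cell cycle and DNA replication genes chosen by name, each followed through every probe set annotated to it alone. Of these, 40 had such a probe set, 58 probe sets in all, among 8251 genes and 12422 probe sets on the array. Ccnb1 and Bub1b had none, and Tyms was represented only on probe sets annotated to several genes, so these genes carry no value. By role they were divided into 15 replication genes, 15 mitosis genes, 6 G1 genes and 4 others, and where a gene had several probe sets the brightest stood for it.

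The study compared mouse lung just before birth with newborn lung, to ask how gene expression responds to the first breaths of air. Whole-organ RNA was hybridised to Affymetrix MGU74Av2 arrays, 33 arrays in 11 groups of 3. One series of lungs came from room air, with a fetal group at gestation day 21 (F21) and newborn groups aged 2, 6, 12 and 24 h. A hypoxic series comprised an F21 group whose dams had spent 12 h in 10% oxygen and newborns aged 2 and 6 h that were born into 10% oxygen. The dams of those newborns were in 10% oxygen before delivery as well, for a time that the methods do not give. Liver was collected in room air only, before birth and in newborns aged 2 and 6 h. No group of these arrays was defined by a mutation or a drug, and the methods state that mice were killed with sodium pentobarbital before dissection. The labels give the strain as C57/BL, C57/Black or BL/57 and the methods give C57B/6J dams. Nothing in the labels says that the 3 arrays of a group came from separate litters, so p-values measure only the spread between these arrays.

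A dividing cell first copies its DNA and then separates the copies. D-type and E-type cyclins with their kinases drive cells out of G1, the MCM helicase, the sliding clamp PCNA and ribonucleotide reductase serve DNA synthesis, and cyclin B with CDK1 starts mitosis, which ends when CDC20 directs the destruction of cyclins. Transcripts of the mitosis genes peak late in the cycle and are scarce in resting cells, and fetal lung and the blood-forming fetal liver both hold many dividing cells.

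Values are signal intensities that the authors computed and scaled per array, and differences are on the log2 scale after raising signals under 10 to 10. A gene was called when limma gave a Benjamini-Hochberg adjusted p under 0.05 over all probe sets tested. Of the 40 genes, 33 passed the filter on low signal in lung, 35 in liver and 37 over both organs. Aurka, Bub1, Mad2l1, Cdc6, Fen1, Mcm6 and Prim1 did not pass it in lung. In lungs the surfactant and airway genes Sftpc, Sftpb and Scgb1a1 summed to at least 21940, against 72.6 to 302 in livers, while the hepatocyte genes Alb, Apoa1, Ttr and Afp summed to 80704 to 107573 in livers, so the organ labels held. Pairs of arrays within a group correlated at 0.725 to 0.812 in 10% oxygen, below the 0.852 to 0.925 of room-air lung and 0.864 to 0.901 of liver. The Gapdh 3′ to 5′ signal ratio, a sign of RNA integrity, was 1.21 to 9.40 on the 10% oxygen arrays, 0.734 to 1.15 in room-air lung and 1.30 to 1.86 in liver.

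After birth in room air the medians of the mitosis, replication and G1 genes lay below F21 at each time, that of the mitosis genes lowest. The median log2 difference of the 15 mitosis genes was -0.95 at 2 h, -0.99 at 6 h, -1.03 at 12 h and -0.96 at 24 h. For the 15 replication genes it was -0.33, -0.51, -0.43 and -0.40 at the same times. The 6 G1 genes had medians of -0.44, -0.39, -0.41 and -0.52, and the median of all genes lay between -0.01 and -0.07. The order of mitosis and replication at 6 h turned without the third F21 array, with medians of -0.60 and -0.72, and the replication median at 6 h was -0.85 with a floor of 1. When single arrays were left out, the mitosis median ranged from -1.19 to -0.50 at 2 h (highest without the second 2 h array) and the replication median from -0.76 to -0.27 at 12 h (lowest without the third 12 h array). These are descriptions with no test, and all 4 times share the F21 arrays. In whole-organ RNA, fewer cells of a dividing type and less RNA per cell cannot be told apart.

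**Figure D1:**
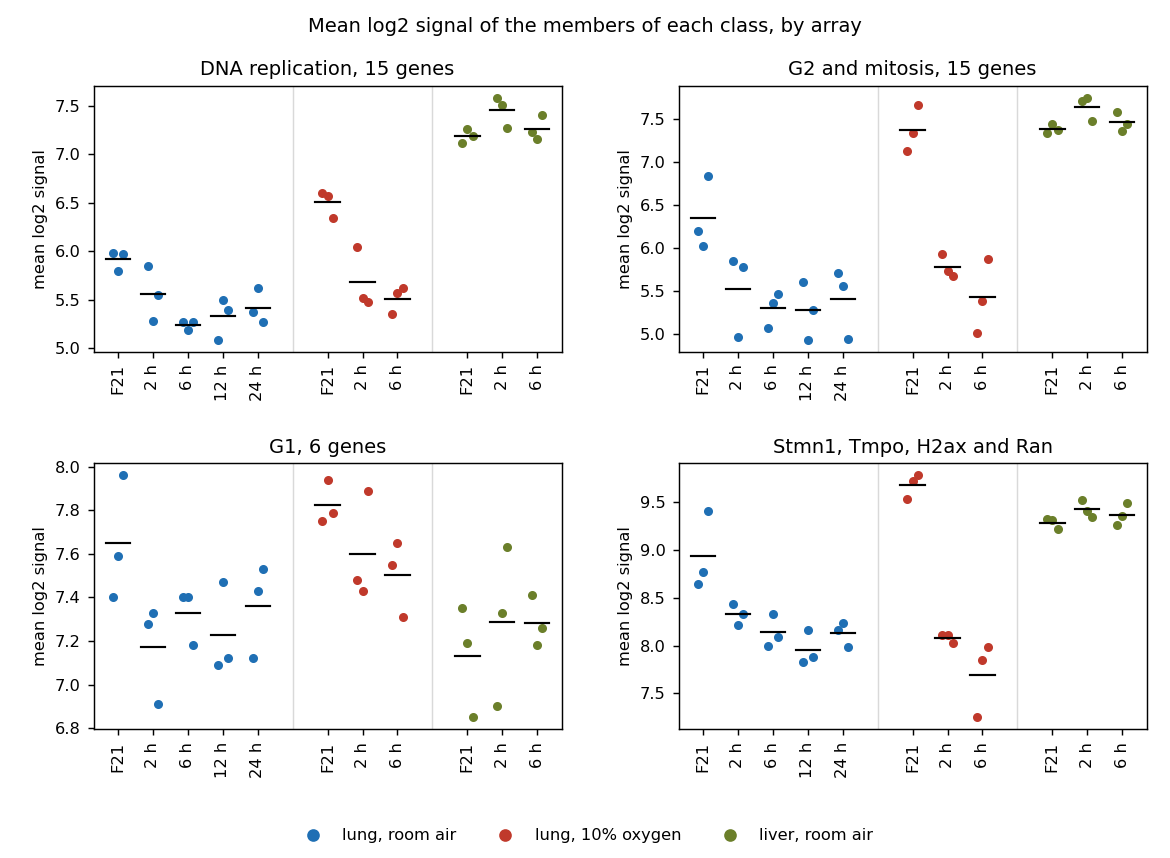
Mean log2 signal of the genes of each class (1 panel per class) on each of the 33 arrays, by group, with a black bar at each group mean. Mitosis genes averaged 6.03 to 6.84 on the F21 room-air arrays, 4.94 to 5.85 on the newborn room-air arrays and 7.34 to 7.75 on the liver arrays.

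Few single genes passed the test at each time. At 2 h Ccne1, Cdc20, Cdk1 and Ran fell, 4 of 33 tested, where 2.79% of all genes tested were called lower. At 6 h only Ccnd3 fell, against 0.245% of all genes. At 12 h Ccnb2, Mki67 and Stmn1 fell, against 0.471%, and at 24 h H2ax fell, against 0.170%. In the mean of the 4 newborn times Ccnb2, Ccnd3, Cdc20, Cdk1 and H2ax fell, 5 of 33, against 0.640% of all genes. No listed gene was called higher at any of these times. The third F21 array read highest for 10 of the 15 mitosis genes, and without it 0 genes were called at 2, 6, 12 or 24 h or in the mean. The single calls at 6 h and at 24 h were each lost in all 6 fits that left out 1 array. Without the third F21 array the mitosis median was -0.64, -0.60, -0.64 and -0.75 at 2, 6, 12 and 24 h, and the replication median -0.40, -0.72, -0.42 and -0.35.

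In 10% oxygen genes of all 4 classes fell. At 2 h 11 of 33 were called lower than at that series' own F21, against 1.41% of all genes tested, and at 6 h 14 of 33, against 3.47%. Aurkb, Ccnb2, Cdc20, Cdk1, Kif20a, Rrm2, Cdk4, H2ax, Ran, Stmn1 and Tmpo were called at both times, and Mcm5, Mki67 and Top2a at 6 h. The mitosis median was -1.44 at 2 h and -1.73 at 6 h, with 15 of 15 genes below 0 at both times. The replication median was -0.73 and -0.93, and the G1 median -0.21 and -0.17. When single arrays were left out the G1 median ranged from -0.35 to -0.08 at 2 h and from -0.46 (without the first F21 array) to -0.03 at 6 h, and the replication median at 6 h from -1.17 to -0.55 (without the first 6 h array). Both comparisons share the F21 arrays of 10% oxygen. The filter asked for 3 bright arrays, so a gene bright in that F21 group alone could pass it. With a filter on the top 30% by median the counts were 8 at 2 h and 11 at 6 h. Aurkb, Kif20a, Rrm2, Mki67 and Top2a did not pass that filter. Without the third F21 array or the third 2 h array the count at 2 h was 6, and 6 genes (Ccnb2, Cdc20, Cdk4, H2ax, Ran and Tmpo) were called in every fit that left out 1 array. At 6 h 10 genes were called in every such fit, namely Aurkb, Ccnb2, Cdc20, Cdk1, Cdk4, H2ax, Ran, Stmn1, Tmpo and Top2a. Set against the F21 lungs of room air instead, 4 genes were called at 2 h and 5 at 6 h, the mitosis median was -0.42 and -0.72, the replication median -0.34 and -0.15, and the G1 median -0.11 and -0.49, so that at 6 h replication lay above G1.

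**Figure D2:**
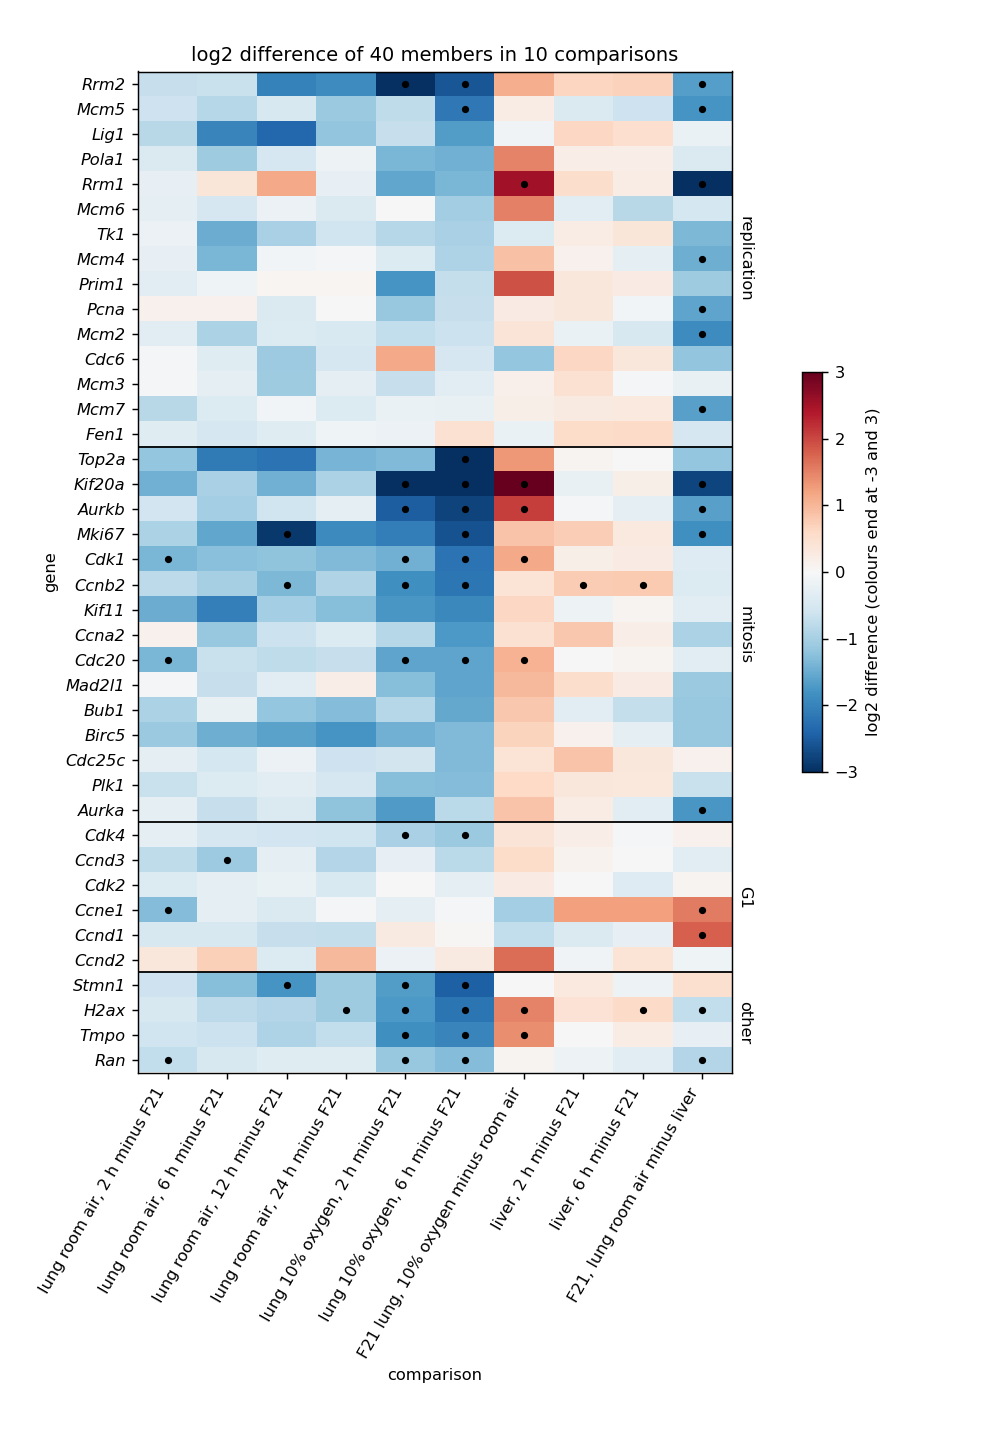
Log2 difference of each of the 40 genes (rows, by class) in 10 comparisons (columns), with colours ending at -3 and 3 and a dot where the adjusted p was under 0.05. Of the columns that compare newborns with F21, those of 10% oxygen hold the most dots. They mark 11 genes at 2 h and 14 at 6 h, against 4 and 1 in room air. Of all genes tested, 1.41% and 3.47% were called lower in 10% oxygen at these times, against 2.79% and 0.245% in room air. Each series was set against its own F21, and the interaction between oxygen levels called 0 of 33 genes at 2 h and at 6 h. The column of F21 lung against liver holds 15.

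Promoter sequences are shown for members that carried these calls: the mitosis genes Ccnb2, Cdk1 and Cdc20, called in lungs of both oxygen levels, the replication genes Rrm2 and Mcm5, and the G1 gene Cdk4, called in 10% oxygen. Each is the 150 bases before a RefSeq start site (GRCm38.p6), written 5′ to 3′ on the gene's strand. For Mcm5 the annotated gene begins at 75109468, before the start site used, so the last printed bases lie within it. Capitals mark a CCAAT box (CCAAT), a cell cycle genes homology region or CHR (TTTGAA or TTCGAA), or an E2F word (TTTCCCGC, TTTCGCGC, TTTGCCGC or TTTGGCGC), on either strand. The capitals that open Mcm5 are 2 overlapping E2F words with first bases at -153 and -149, the former of which begins before the printed window.
Ccnb2, chr9:70421555-70421704, minus strand: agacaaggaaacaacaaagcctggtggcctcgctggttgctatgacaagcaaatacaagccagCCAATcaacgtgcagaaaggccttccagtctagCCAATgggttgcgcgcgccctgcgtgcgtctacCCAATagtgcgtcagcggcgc
Cdk1, chr10:69352913-69353062, minus strand: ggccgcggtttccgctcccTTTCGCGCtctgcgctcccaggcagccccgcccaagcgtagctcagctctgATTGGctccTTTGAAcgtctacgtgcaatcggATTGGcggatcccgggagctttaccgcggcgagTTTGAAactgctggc
Cdc20, chr4:118437344-118437493, minus strand: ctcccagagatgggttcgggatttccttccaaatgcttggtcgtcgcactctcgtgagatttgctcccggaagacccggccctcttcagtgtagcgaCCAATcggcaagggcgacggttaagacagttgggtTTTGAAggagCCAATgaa
Rrm2, chr12:24708104-24708253, plus strand: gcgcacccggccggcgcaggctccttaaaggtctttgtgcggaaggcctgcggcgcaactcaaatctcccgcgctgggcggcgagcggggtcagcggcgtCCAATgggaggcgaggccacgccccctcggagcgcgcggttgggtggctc
Mcm5, chr8:75109359-75109508, plus strand: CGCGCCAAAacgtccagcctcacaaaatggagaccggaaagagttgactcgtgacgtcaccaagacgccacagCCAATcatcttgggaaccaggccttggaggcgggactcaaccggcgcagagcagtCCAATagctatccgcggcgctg
Cdk4, chr10:127063385-127063534, plus strand: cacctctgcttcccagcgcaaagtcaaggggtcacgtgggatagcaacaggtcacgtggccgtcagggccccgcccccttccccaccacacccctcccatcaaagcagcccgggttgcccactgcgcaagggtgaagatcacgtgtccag

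The Ccnb2 promoter holds 3 CCAAT boxes whose first bases lie at -87, -54 and -21 from the start, spaced 33 bases apart. Its CHR words begin at -167 and 5, outside the printed bases. Cdk1 holds CHR words at -71 and -15, and Cdc20 holds one at -18. In windows from 250 bases before to 50 after the start, 37 promoters of 31 of the genes were matched. A CHR word was found in 9 of 11 mitosis promoters (81.8%), 3 of 18 replication promoters (16.7%), 0 of 5 G1 promoters and 19.2% of 32851 promoters of all genes. An E2F word was found in 7 of 18 replication promoters (38.9%), 1 of 11 mitosis promoters (9.09%) and 2.26% of all promoters. CCAAT boxes were found in 9 of 11 mitosis promoters, 11 of 18 replication promoters (61.1%) and 37.4% of all. Several of these promoters belong to the same gene, and a match describes the letters only.

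Ccnb2, a mitotic B-type cyclin, had signals of 405, 390 and 543 at F21 in room air. They were 299, 180 and 308 at 2 h, 192, 230 and 250 at 6 h, 157, 186 and 181 at 12 h, and 242, 266 and 206 at 24 h. Every newborn array lay below every F21 array. The difference passed the test at 12 h (log2 difference -1.34, SE 0.27, adjusted p = 0.00867). In 10% oxygen Ccnb2 read 522, 546 and 717 at F21, 207, 180 and 122 at 2 h and 187, 92.3 and 133 at 6 h. The groups again did not overlap, and Ccnb2 fell by 1.83 at 2 h (SE 0.27, adjusted p = 0.000824) on the log2 scale and fell by 2.16 at 6 h (SE 0.27, adjusted p = 2.36e-05). Its mean was 446 ± 84.1 at F21 and 224 ± 29.7 at 6 h in room air (SD, n = 3). In 10% oxygen it was 595 ± 106 at F21 and 138 ± 47.5 at 6 h.

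Cdk1, the kinase that starts mitosis, read 161, 228 and 278 at F21 in room air and 89.1, 97.4 and 66.3 at 2 h, without overlap. It fell by 1.38 at 2 h (SE 0.34, adjusted p = 0.0199). In 10% oxygen it read 398, 496 and 541 at F21 and 82.2, 97.2 and 136 at 6 h, and it fell by 2.21 (SE 0.34, adjusted p = 0.00038). Cdc20, the activator of the anaphase-promoting complex, read 355, 298 and 515 at F21 in room air and 175, 97.1 and 186 at 2 h. It fell by 1.37 at 2 h (SE 0.29, adjusted p = 0.00714), and its later arrays, from 191 to 273, lay between these groups. In 10% oxygen Cdc20 read 638, 577 and 1292 at F21 and 294, 243 and 245 at 2 h, with the third F21 array far above the others.

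**Figure D3:**
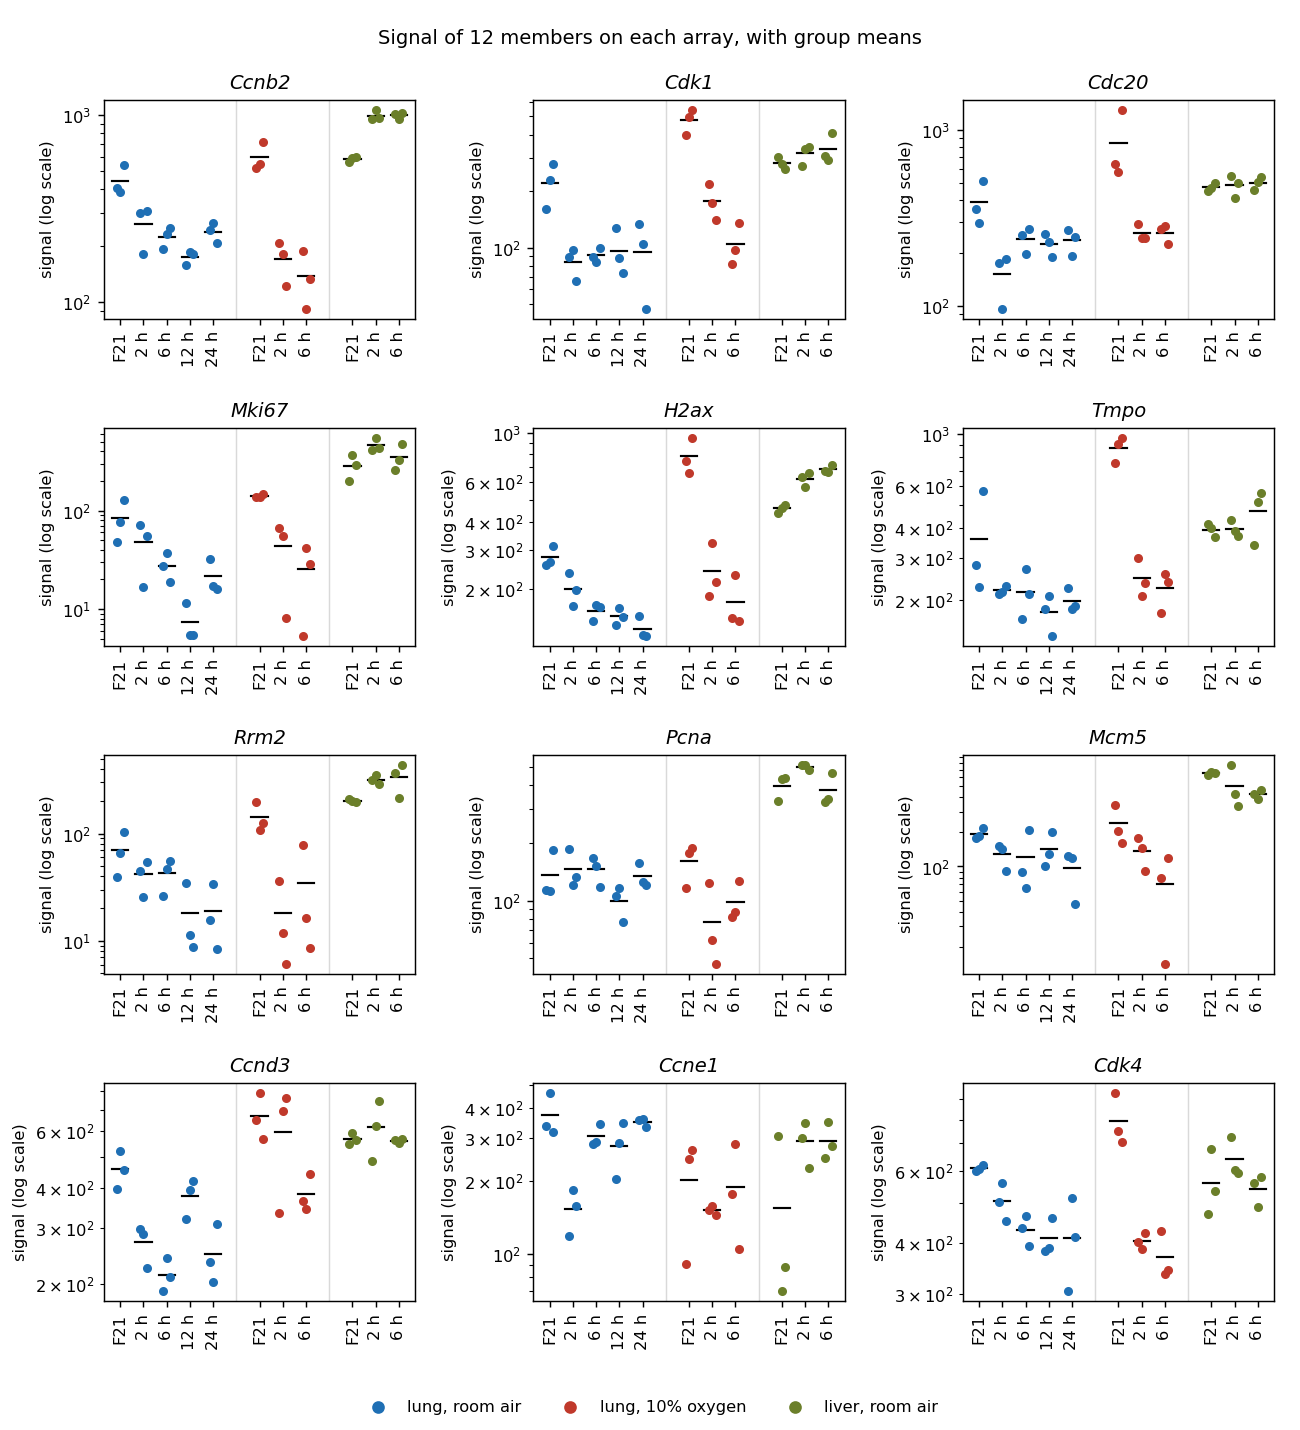
Signal (log axis) of 12 of the genes on each array by group, with a tick at each group mean. Ccnb2 and H2ax were lower on every newborn room-air array than on every F21 room-air array, and Ccnb2 was highest in newborn liver.

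Mki67, the gene of the proliferation antigen Ki-67, read 48.3, 77 and 128 at F21 in room air and 11.5, 5.5 and 5.4 at 12 h. The last 2 of these 12 h values lie under the floor of 10, and Mki67 fell by 2.90 (SE 0.69, adjusted p = 0.0362). A dimmer second probe set of Mki67 gave -0.66 at 12 h. Top2a, the topoisomerase that untangles copied DNA, read 108, 145 and 166 at F21 in 10% oxygen and 6.7, 8 and 31 at 6 h, and fell by 3.23 (SE 0.70, adjusted p = 0.00698). Aurkb, a kinase of chromosome segregation, read 196, 198 and 133 at that F21 and 21.3, 29.2 and 26.1 at 6 h, and it fell by 2.77 (SE 0.61, adjusted p = 0.00819). Kif20a, a kinesin of cell division, read 220, 204 and 284 at that F21 and 14.9, 55.8 and 10.4 at 2 h, and it fell by 3.51 (SE 0.82, adjusted p = 0.0202). A second Kif20a probe set, under the filter in lung, read 37.8, 81.7 and 35.3 at that F21 and 13.2, 45.8 and 29.4 at 2 h, overlapping groups with log2 differences of -0.87 at 2 h and -0.43 at 6 h. On the brighter probe set the room-air F21 arrays were 19, 9.5 and 108, so that fetal group spanned nearly the whole range. Of the mitosis genes that passed in no comparison within lung, Kif11, a spindle motor, had log2 differences of -1.48, -2.06, -1.03 and -1.27 at the room-air times, and Birc5, the survivin gene, -1.11, -1.47, -1.60 and -1.76. The remaining mitosis genes tested in lung were Ccna2, the A-type cyclin, Cdc25c, the phosphatase that activates Cdk1, and the kinase Plk1, with room-air differences at 6 h of -1.14, -0.52 and -0.41. Among those under the filter, Aurka gave -0.70, Mad2l1 -0.68 and Bub1 -0.23 at 6 h.

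Among replication genes, Rrm2 and Mcm5 were called lower in 10% oxygen, and limma called 0 of the 11 tested lower in room air at 2, 6, 12 or 24 h (0, 3, 3 and 1 at an unadjusted p under 0.05). Rrm2, the regulated subunit of ribonucleotide reductase, read 195, 109 and 125 at F21 in 10% oxygen and 36.2, 11.9 and 6.1 at 2 h, and it fell by 3.09 (SE 0.73, adjusted p = 0.0213). At 6 h its arrays were 78.1, 16.2 and 8.6, still below every F21 array. Mcm5, a subunit of the replicative helicase, read 346, 205 and 161 at that F21 and 79.5, 14.2 and 118 at 6 h, and it fell by 2.14 (SE 0.57, adjusted p = 0.023), and a second probe set of Mcm5 gave 0.39. Pcna read 113, 112 and 183 at F21 in room air and 185, 121 and 133 at 2 h, overlapping groups with a log2 difference of 0.12. Lig1, the ligase that joins Okazaki fragments, had -0.83, -1.99, -2.36 and -1.19 at the room-air times without passing. At 6 h in room air the helicase subunits Mcm2, Mcm3, Mcm4 and Mcm7 had differences of -0.95, -0.30, -1.38 and -0.40, thymidine kinase Tk1 -1.50 and the DNA polymerase subunit Pola1 -1.06, none of which passed. Rrm1 lay above F21 at 6 and 12 h, by 0.37 and 1.13, without passing (adjusted p = 0.578 at 12 h), and its 12 h arrays of 56.7, 55.1 and 30.9 did not overlap the F21 arrays of 24.5, 15.5 and 24.3. Of the genes under the filter, the loading factor Cdc6 gave -0.37, the flap nuclease Fen1 -0.51, Mcm6 -0.51 and the primase Prim1 -0.13.

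G1 genes were called at different times. Ccne1, the E-type cyclin, read 338, 462 and 317 at F21 in room air and 118, 184 and 158 at 2 h, and fell by 1.29 (SE 0.34, adjusted p = 0.0309). At 6 h it read 283, 289 and 343 and at 24 h 358, 360 and 335, values that overlap those of F21. Ccnd3, a D-type cyclin, read 396, 519 and 455 at F21 and 190, 242 and 211 at 6 h, and fell by 1.09 (SE 0.25, adjusted p = 0.0285). Cdk4, the partner of D-type cyclins, fell in 10% oxygen from 931, 751 and 707 at F21 to 402, 387 and 423 at 2 h (log2 difference -0.97, SE 0.18, adjusted p = 0.00498). A second Cdk4 probe set gave -0.67 at 2 h and did not pass. Ccnd2 lay above its F21 level at 2, 6 and 24 h in room air, by 0.35, 0.71 and 0.97, without passing. Cdk2, the kinase partner of cyclin E, had differences between -0.19 and -0.45 at the 4 room-air times.

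The other 4 genes were all called lower at both times in 10% oxygen. H2ax, a histone variant of DNA repair, read 744, 660 and 950 at F21, 186, 321 and 214 at 2 h and 148, 232 and 144 at 6 h, and fell by 2.19 at 6 h (SE 0.24, adjusted p = 1.08e-05). Tmpo, a nuclear lamina protein, read 756, 903 and 962 at F21 and 301, 207 and 235 at 2 h, and it fell by 1.83 (SE 0.27, adjusted p = 0.000824). Stmn1, a microtubule-destabilising protein, fell by 2.46 at 6 h (SE 0.43, adjusted p = 0.00137). Ran, the GTPase of nuclear transport, read 1169, 1395 and 1649 at F21 in room air and 870, 852 and 774 at 2 h, and fell by 0.74 (SE 0.19, adjusted p = 0.0226).

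The fetal baselines themselves differed. At F21, 7 of 33 genes were higher in 10% oxygen than in room air, against 2.58% of all genes tested, and they were Aurkb, Cdc20, Cdk1, H2ax, Kif20a, Rrm1 and Tmpo. The mitosis median was 0.85 and the replication median 0.25. The latter ranged from 0.15 to 0.61 when single arrays were left out, and was highest without the second 10% oxygen array. H2ax was higher by 1.49 (SE 0.24, adjusted p = 0.000581), with 744, 660 and 950 against 255, 265 and 310. Tmpo was higher by 1.39 (SE 0.27, adjusted p = 0.00316), and these 2 were called in every fit that left out 1 array. The count was 2 without the first or the second room-air F21 array. The filter asked for 3 bright arrays, so a gene bright in the 10% oxygen F21 group alone could pass it. With a filter on the top 30% by median the count was 4, and Aurkb, Kif20a and Rrm1 did not pass that filter. With the Gapdh ratio as a covariate 6 of the 7, Tmpo among them, were no longer called, and H2ax was. In the second 10% oxygen F21 array the hepatocyte genes summed to 2805, with Alb at 2160. The part of the Gapdh ratio and of hepatocyte RNA in these differences was not tested beyond this. These F21 arrays are also the baselines of the newborn comparisons.

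Newborn lungs of both oxygen levels were also compared directly at the same time. At 2 h 4 of 33 genes passed, against 15.9% of all genes called in either direction: Ccnd3 (1.07), Cdc20 (0.82) and Cdk1 (1.07) were higher in 10% oxygen and Pcna (-1.02) was lower. At 6 h Ccnd3 (0.84) was higher and Ran (-0.74) lower, 2 of 33 against 5.37%. Without the second 10% oxygen array or the first room-air array the count at 2 h was 1, and at 6 h it was 0 without any single room-air array of that time. Whether the change from F21 differed between oxygen levels was tested as an interaction, and limma called 0 of 33 genes at 2 h, against 0.358% of all genes, and 0 at 6 h, against 0.0188%. At an unadjusted p under 0.05 the counts were 8 and 6. H2ax had the smallest p, with differences of 1.26 at 2 h (SE 0.34, adjusted p = 0.106) and 1.40 at 6 h (SE 0.34, adjusted p = 0.203). Tmpo followed with 1.23 (SE 0.39, adjusted p = 0.173) and 1.32 (SE 0.39, adjusted p = 0.258). The third was Ccnb2 at 2 h (1.04, SE 0.38, adjusted p = 0.248) and Ran at 6 h (0.82, SE 0.26, adjusted p = 0.345). The count at 2 h was 1 without the third room-air F21 array.

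**Figure D4:**
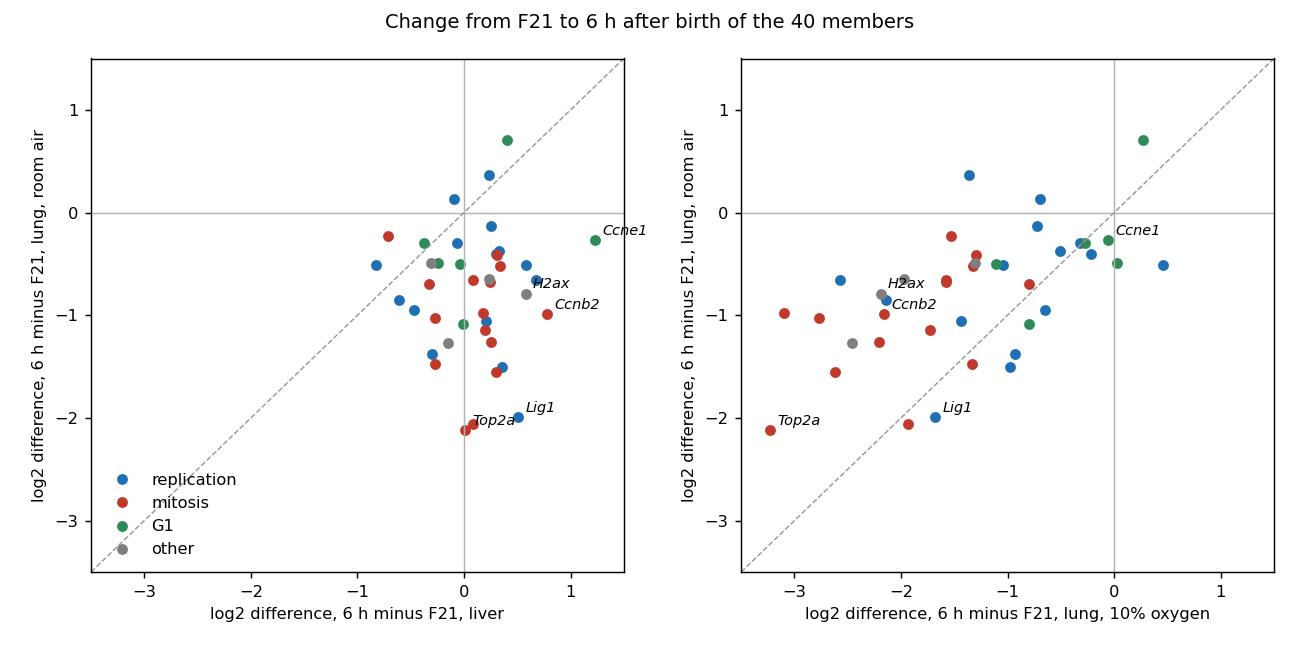
Log2 difference from F21 to 6 h of each gene in room-air lung (vertical) against liver and against 10% oxygen lung (horizontal), coloured by class, with a dashed line of equal change. In room-air lung 37 of 40 genes lay below 0, against 16 in liver and 37 in 10% oxygen.

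In liver the median of the 40 genes was 0.21 at 2 h and 0.19 at 6 h. Ccnb2 rose, from 561, 592 and 600 at F21 to 958, 1064 and 960 at 2 h and 1015, 954 and 1032 at 6 h, with no overlap (log2 difference 0.77 at 2 h, SE 0.13, adjusted p = 0.0114, and 0.78 at 6 h, SE 0.13, adjusted p = 0.00587). It was the 1 gene of 35 called higher at 2 h, against 0.515% of all genes, and with H2ax 1 of 2 at 6 h, against 0.807%. H2ax read 439, 460 and 476 at F21 and 672, 668 and 716 at 6 h (0.58, SE 0.14, adjusted p = 0.0491). The 2 h count was 0 without the third F21 liver array, the second 2 h array or the third 2 h array. At 6 h H2ax was lost in each of the 6 fits that left out 1 array, and Ccnb2 in none. The change from F21 in lung minus that in liver was -1.56 for Ccnb2 (SE 0.33, adjusted p = 0.0123) and -2.50 for Ccne1 (SE 0.56, adjusted p = 0.0228) at 2 h, 2 of 37 genes against 0.637%. At 6 h it was -1.76 for Ccnb2 (SE 0.33, adjusted p = 0.00747) and -1.37 for H2ax (SE 0.29, adjusted p = 0.0303), 2 of 37 against 0.0689%. For Ccne1 the F21 livers read 306, 69.8 and 87.9, so the first array stands apart, and only Ccnb2 at 6 h was called in every fit that left out 1 array. These tests share the F21 arrays with the comparisons above.

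At F21 lung held less of most of these transcripts than liver. Called lower in lung were 13 of 37 genes, against 12.3% of all genes, and called higher were Ccnd1 and Ccne1, against 16.7%. The lower genes were Mcm2, Mcm4, Mcm5, Mcm7, Pcna, Rrm1 and Rrm2 in replication, Aurka, Aurkb, Kif20a and Mki67 in mitosis, and H2ax and Ran. The filter over both organs asked for 3 bright arrays, so a gene bright in liver alone could pass it. With a filter on the top 30% by median 9 genes were called in either direction. Aurka, Aurkb, Kif20a, Mki67, Mcm4, Rrm1 and Rrm2 did not pass that filter. The replication median was -1.35, with 15 of 15 genes below 0, the mitosis median -1.12 and the G1 median 0.11. Rrm1, the large subunit of ribonucleotide reductase, read 24.5, 15.5 and 24.3 in lung and 357, 288 and 167 in liver (log2 difference -3.62, SE 0.57, adjusted p = 9.07e-06). Pcna differed by -1.58 (SE 0.30, adjusted p = 0.000113) and the helicase subunit Mcm7 by -1.64 (SE 0.37, adjusted p = 0.000892). Ccnd1, a D-type cyclin, was higher in lung, with 219, 268 and 235 against 105, 74.9 and 42.4 (1.79, SE 0.37, adjusted p = 0.000387). A second Ccnd1 probe set gave 0.36 (SE 0.63, adjusted p = 0.734), with overlapping signals of 108, 88.9 and 91.3 in lung and 55.3, 76.5 and 99.2 in liver. In every fit that left out 1 array, 10 of the 15 calls held, and the total was 10 without the second liver array.

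Markers of blood cells differed between the organs, and in lung those of neutrophils and Hba-a1 moved with time. The 8 neutrophil markers summed to 572 to 768 in F21 room-air lung, 1733 to 2928 at 6 h and 16259 to 22404 in liver. The 9 erythroid markers without Hba-a1 summed to 1624 to 2404 in room-air lung and 10207 to 11256 in liver at 6 h. Hba-a1 was called lower at 2 h in room-air lung. With it the 10 markers summed to 32604 to 38401 at F21 and 16318 to 20904 at 2 h there. At 6 h they summed to 32197 to 39103. Hypoxic lungs gave sums of 23645 to 34674 at F21 and 38567 to 59656 at 2 h. Without Hba-a1 these hypoxic sums were 1142 to 1217 at F21 and 1250 to 1938 at 2 h. In room-air lung the 3 epithelial markers summed to 47814 to 62056 at F21 and 27164 to 31921 at 2 h. In 10% oxygen they summed to 21940 to 40249 at F21, 42449 to 48856 at 2 h and 49266 to 53598 at 6 h, with Scgb1a1 and Sftpb called higher at 2 h and Scgb1a1 at 6 h. At F21 Scgb1a1, Alas2, Tfrc and Lcn2 were called lower in 10% oxygen than in room air. The 6 mesenchyme markers in 10% oxygen summed to 16291 to 21318 at F21 and 20530 to 25225 at 6 h, although 4 of them, Col3a1, Col1a2, Col1a1 and Acta2, fell at 6 h. The 5 endothelial markers summed to 810 to 1407 in room-air lung. The part of these cells in the results was not tested.

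Genes that restrain the cycle were measured beside them, 19 of 22 listed, with 15 tested in lung. Their median log2 difference over the 19 was 0.02, 0.15, -0.22 and -0.19 at 2, 6, 12 and 24 h in room air. In 10% oxygen it was -0.08 at 2 h and -0.23 at 6 h. In room air 2 were called higher at 2 h, 1 at 6 h and 0 at 12 and 24 h. Of all 5309 genes tested, 223, 57, 74 and 35 were called in either direction at these times. In room air Klf4, a growth-arrest transcription factor, read 77, 97 and 90.2 at F21 and 490, 480 and 492 at 2 h, and rose by 2.47 (SE 0.47, adjusted p = 0.00403), and the antiproliferative gene Btg1 rose by 1.30 (SE 0.32, adjusted p = 0.0195). Cdkn1a, the CDK inhibitor p21, read 93.9, 142 and 85.5 at F21 and 435, 501 and 451 at 6 h, and rose by 2.14 (SE 0.47, adjusted p = 0.0212). Cdkn1c, the CDK inhibitor p57, went the other way, from 550, 554 and 583 to 280, 216 and 181 at 12 h (-1.34, SE 0.26, adjusted p = 0.00674). In 10% oxygen at 6 h Cdkn1a and Klf4 also rose, by 2.08 (SE 0.47, adjusted p = 0.00906) and 1.65 (SE 0.47, adjusted p = 0.0367), and Cdkn1c fell by 0.92 (SE 0.26, adjusted p = 0.0336). There 339 of all genes tested were called in either direction. At 2 h in 10% oxygen limma called 0 of the 15.

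Of 81 further cell cycle genes with a probe set, 46 were tested in lung. In room air 3 fell at 2 h, against 2.79% of all genes, namely Bub3 (-1.05), Hat1 (-1.79) and Cdca8 (-1.74), and Kif23 (-2.23) fell at 12 h, against 0.471%. At 6 h and 24 h limma called 0 of the 46, with 13 and 6 at an unadjusted p under 0.05. In 10% oxygen 3 fell at 2 h, against 1.41%, and 8 at 6 h, against 3.47%. Their median over the 81 was -0.20 at 2 h and -0.49 at 6 h in room air, and -0.68 and -0.69 in 10% oxygen.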

How the data were processed

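Lung and liver RNA was hybridised to MGU74Av2 arrays. The deposited signal intensities were computed by the authors with MAS5 (named without a version in the submitters' processing notes) and each chip was scaled to a common target intensity. No depth applies, and 3 arrays per group limit the precision. Of 12488 probe sets, 66 controls were left out, 10833 had 1 symbol, 396 several and 1193 none. Signals under 10 were set to 10 and log2 transformed. Probe sets in the top 40% of an array in at least 3 arrays were tested (6930 in lung, 5691 in liver, 7636 in both) with limma 3.58.1 in R 4.3.3 (eBayes with trend, Benjamini-Hochberg adjustment), lung groups sharing 1 estimate of spread, and the script was tested on simulated data. Tables were made with Python 3.11.15. The members and gene lists were chosen with earlier results of these data known. Full values were given for called members, or the 3 smallest p where none was called. Alternatives were the methods' t-test, other filters, floor 1, quantile normalization, array weights, the Gapdh ratio, the compared groups alone, another baseline, the replicate block and leaving out each array. Promoters came from RefSeq (GRCm38.p6).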

Additional observations from a re-analysis of the deposited data

Results flagged for a closer look

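The change from F21 differed between room-air lung and liver, by an interaction test in limma, for 3 genes. For Ccnb2 the lung change minus the liver change was -1.56 at 2 h and -1.76 at 6 h on the log2 scale. For Ccne1 it was -2.50 at 2 h, and for H2ax it was -1.37 at 6 h. Groups of 3 arrays were too small for a test of single outlying arrays.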

How the results depend on the processing

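Counts of called genes in this paragraph are out of the tested members, by comparison, unless all genes are named. With the methods' t-test after adjustment, 0 genes were called in room-air lung at 2, 6, 12 or 24 h, in 10% oxygen at 2 or 6 h, between oxygen levels at F21, 2 h or 6 h, or in liver at 2 h, and 1 in liver at 6 h. Without adjustment it called 6 at 6 h and 4 at 24 h in room air, 8 at 6 h in 10% oxygen, 3 between oxygen levels at F21, 2 at 2 h and 1 at 6 h, and 3 in liver at 2 h. Array weights gave 4 at 6 h, 10 at 12 h, 6 at 24 h and 11 for the mean in room air, 6 and 8 at 2 and 6 h in 10% oxygen, 1 between oxygen levels at 6 h, 2 in liver at 2 h and 4 for the lung minus liver response at 2 h. The filter on the top 30% by median gave 3 at 6 h and 2 at 24 h in room air, 4 between oxygen levels at F21, 9 between F21 lung and liver and 4 for the lung minus liver response at 2 h. Without a filter the counts were 0 at 6 h, 1 at 12 h, 0 at 24 h and 3 for the mean in room air, and 1 between oxygen levels at 6 h. Fitting the compared groups alone gave 3 at 6 h and 0 at 24 h in room air, 0 between oxygen levels at 6 h, 1 in liver at 6 h and 4 for the lung minus liver response at 6 h. Quantile normalization gave 0 at 24 h in room air, and 1 each between oxygen levels at 6 h, in liver at 6 h and for the lung minus liver response at 6 h. The Gapdh ratio as a covariate gave 2 between oxygen levels at F21, 1 at 6 h and 1 in liver at 6 h. Room-air F21 as the baseline gave 4 at 2 h and 5 at 6 h in 10% oxygen. The causes were not tested.

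When single arrays were left out, the room-air count ranged from 0 to 4 at 2 h, was 0 at 6 h, and ranged from 0 to 2 at 12 h, from 0 to 1 at 24 h and from 0 to 7 for the mean. In 10% oxygen it ranged from 6 to 10 (2 h) and from 10 to 14 (6 h). Between oxygen levels it gave 2 to 8 at F21, 1 to 3 at 2 h and 0 to 2 at 6 h, and for the response 0 to 1 at 2 h. It gave 0 to 2 at 2 h and 1 to 2 at 6 h in liver, 10 to 16 between F21 lung and liver, and 1 to 3 and 1 to 2 for the lung minus liver response at 2 and 6 h. Equal sample numbers did not pair the arrays, with correlations from -0.15 to 0.13. The replicate block gave 1 in liver at 6 h and moved no other count of called members by over 1.5 times. No called gene reversed direction in 1241 alternative values, and 357 no longer passed. Of 684 alternative class medians, 63 moved by over 1 SD. With 3 arrays per group and signals near 10 for several members, smaller differences were not detectable.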
